A study of Capra hircus with 2 samples.

Results

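The miR-148 and miR-152 family was followed in small RNA of the goat mammary gland at peak and at late lactation. Its 3 members, miR-148a-3p, miR-148b and miR-152, were found by sequence in the deposited tags, a tag being a distinct read sequence with its number of reads. All tags that contained nt 2 to 17 of a member's leading tag were counted for that member. They numbered 686 for miR-148a-3p, 123 for miR-148b and 130 for miR-152, and 937 in all, since 2 tags carried the sequence of more than 1 member. These were 937 of the 659118 tags of the series. The leading tag of miR-148a-3p was chosen by its read count at peak, where no tag had more reads, so its level is a description. It held 1736272 reads there (9.12% of the clean reads), and the runner-up tag, which belonged to miR-143, held 1576851 reads (8.28%).

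The tissue came from Laoshan dairy goats (Capra hircus) that were 4 years old and in the third lactation, at 90 days postpartum (peak lactation) and at 210 days postpartum (late lactation). Each stage is 1 library made from the pooled RNA of 5 goats, so the stages had no replicate library, no test across animals was possible, and stage and library cannot be told apart. The sources used here do not make clear whether the same goats were sampled at both stages. The peak library held 19044002 clean reads and the late library 7385833, and levels are given as reads per 1000000 clean reads (RPM), where 1 read was worth 0.0525 RPM at peak and 0.135 RPM at late lactation. The 95% intervals are exact binomial (Clopper-Pearson) intervals, except those of a difference between log2 ratios, which use the normal approximation for log counts. They hold counting error alone: PCR copies of a molecule are counted as separate reads, and pooling removed the spread between goats. In whole tissue, fewer cells of a type and less RNA per cell cannot be told apart.

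MicroRNAs are short RNAs that are cut from the arms of a hairpin precursor and guide the Argonaute proteins to messenger RNAs. Targets are recognised mainly through the seed near the 5′ end of the microRNA, so microRNAs with the same seed share many predicted targets. The miR-148 and miR-152 family is made from the 3′ arms of separate hairpin genes, is known for its targeting of the DNA methyltransferase DNMT1, and miR-148a is known as one of the most abundant microRNAs of milk.

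The leading tags of the members are shown with the seed (nt 2 to 8) in capitals, because the shared seed defines the family and the bases after it tell the members apart. They are written with T for U, as deposited, from 5′ to 3′.
miR-148a-3p: tCAGTGCActacagaactttgt
miR-148b: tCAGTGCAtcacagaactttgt
miR-152: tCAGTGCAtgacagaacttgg
The seed was the same in all 3. Counted from nt 1, miR-148b differed from miR-148a-3p by C9T and T10C over 22 positions. miR-152 differed from miR-148a-3p by C9T, T10G and T20G over 21 positions, and its leading tag was 21 nt long against 22 nt for the other members. miR-148b and miR-152 differed from each other by C10G and T20G. In the goat annotation of RefSeq (assembly ARS1.2) the genes are MIR148A (gene ID 104795736) and MIR148B (gene ID 104795737), and no coordinates are given, as the tags were not placed on that build. The same tag led each of the members' reads in the peak and in the late library.

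All members were lower at late lactation, miR-148a-3p and miR-148b to nearly the same extent and miR-152 less. miR-148a-3p, the dominant member, held 1920768 reads at peak and 189956 at late lactation. Its level was 100859 RPM at peak and 25719 RPM at late lactation, a 3.92-fold lower level (95% interval 3.90 to 3.94) and a log2 ratio of -1.97. As a share of the clean reads it went from 10.1% to 2.57%. Among groups of tags that share their first 18 nt, its group ranked 2 at peak and 6 at late lactation.

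miR-148b, the member closest to it in sequence, held 41522 reads (2180 RPM) at peak and 4023 reads (545 RPM) at late lactation. Its level was 4.003-fold lower at late lactation (3.88 to 4.14), a log2 ratio of -2.00. miR-152 held 34401 reads (1806 RPM) at peak and 4966 reads (672 RPM) at late lactation. That was 2.69-fold lower (2.61 to 2.77), a log2 ratio of -1.43. The order of the 2 minor members was thus reversed, with miR-148b above miR-152 at peak and miR-152 above miR-148b at late lactation. In the ranking of groups, miR-148b went from 32 to 109 and miR-152 from 33 to 94.

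The difference between the log2 ratios of miR-152 and miR-148a-3p was 0.55 (95% counting interval 0.50 to 0.59). Between miR-148b and miR-148a-3p it was -0.03 (-0.08 to 0.02), and between miR-148b and miR-152 it was -0.58 (-0.64 to -0.51). The decrease of miR-152 was therefore smaller than those of the other members by more than the counting error. For miR-148b and miR-148a-3p no difference was detectable at this depth, within these bounds. These intervals do not contain the spread between goats.

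**Figure D1:**
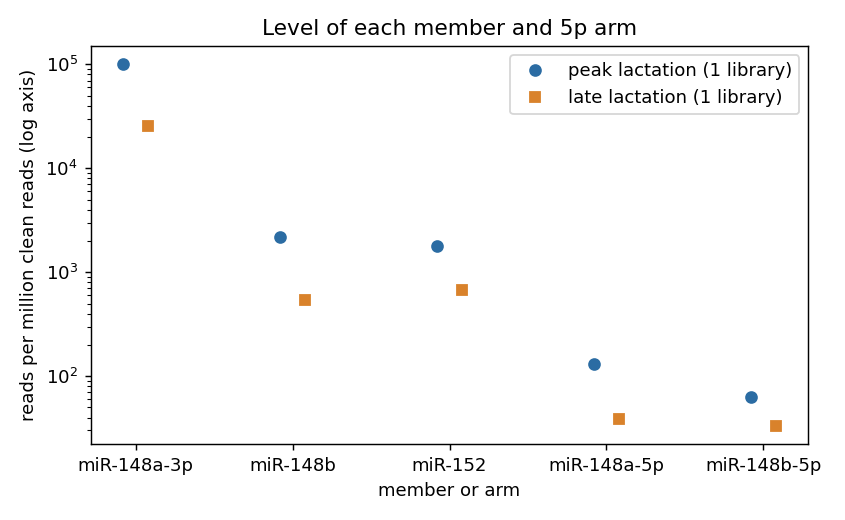
Level of each family member and of the 5p arms described further on, in RPM on a log axis, with circles for the peak library and squares for the late library. miR-148a-3p lay far above the other members in both libraries (100859 and 25719 RPM), every member and arm was lower at late lactation, and miR-148b and miR-152 changed places.

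miR-148a-3p dominated the family in both libraries, while the small share of miR-152 was higher at late lactation. The family as a whole held 1996688 reads (104846 RPM, 10.5% of the clean reads) at peak and 198945 reads (26936 RPM, 2.69%) at late lactation, 3.89-fold lower (3.87 to 3.91). miR-148a-3p made up 96.2% of the family reads at peak and 95.5% at late lactation. The share of miR-148b was 2.08% (95% interval 2.06% to 2.10%) and 2.02% (1.96% to 2.08%), intervals that overlap. The share of miR-152 was 1.72% (1.70% to 1.74%) and 2.50% (2.43% to 2.57%). There were 55.8 reads of miR-148a-3p for each read of miR-152 at peak and 38.3 at late lactation. Over the same libraries the reads of miR-148a-3p for each read of miR-148b were 46.3 and 47.2.

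These ratios were read against all groups of tags that share their first 18 nt. Of 12039 groups with at least 1 RPM in a library, 31.1% were at least 2-fold lower and 36.4% at least 2-fold higher at late lactation, and the median log2 ratio was 0.05. Among groups with at least 1 read in both libraries, as all members have, 16.04% were at least 2-fold lower and 45.23% at least 2-fold higher. Under that limit alone, 1 read in each library counts as more than 2-fold higher, at 0.0525 RPM and 0.135 RPM. Depth thus moves this split for groups of few reads, unlike the members. Among groups with at least 10 RPM in a library, as all members also have, 37% were at least 2-fold lower and 25.51% at least 2-fold higher. The background share thus depended on the level required and, for groups of few reads, on the depth of the libraries. All 3 members were at least 2-fold lower. Among the 85 groups with at least 1000 RPM in a library, which include all members, 24.7% were at least 2-fold lower and 32.9% at least 2-fold higher. miR-148b and miR-152 reached 1000 RPM only at peak, and miR-148a-3p was chosen by its peak count, so nothing is read from the count of members past this limit. Of those 85 groups, 10 had a log2 ratio as low as that of miR-148a-3p or lower, itself included, and 9 and 17 for miR-148b and miR-152.

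**Figure D2:**
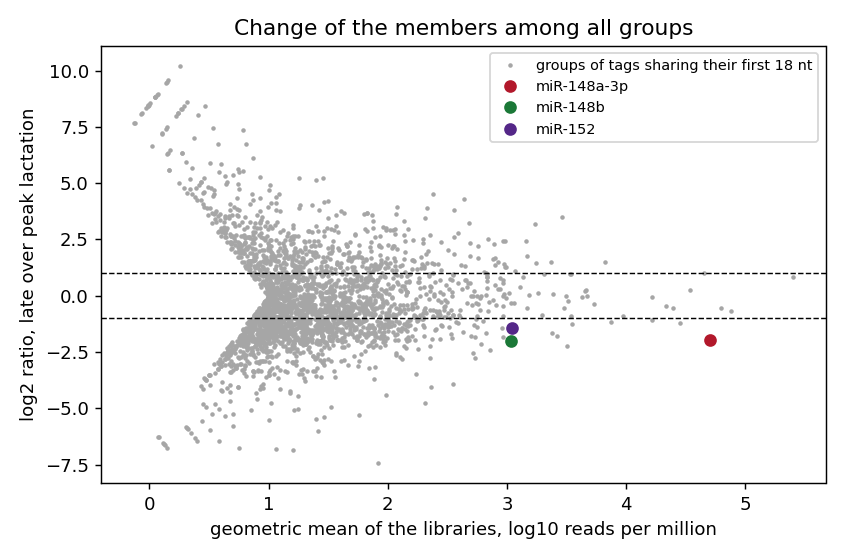
Log2 ratio of late over peak lactation (vertical axis) against the geometric mean level of the libraries (horizontal axis, log10 RPM) for the 2779 groups of tags with at least 10 RPM in a library and a read in both, with dashed lines at 2-fold. The members lie below the lower line, and miR-148a-3p, at a log2 ratio of -1.98 for its group, lies at the abundant end of the plot.

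The groups outside the family whose ratio was nearest to that of miR-148a-3p, among those of at least 1000 RPM in a library, were 3 groups that are given here by their leading tags, without a name. The sequences, printed without capitals, show that these groups do not share the seed of the family.
nearest group: taccacagggtagaaccacgga
next group: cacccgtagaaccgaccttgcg
last of the 3 groups: cgcgacctcagatcagacgt
The nearest group held 33458 reads (1757 RPM) at peak and 3618 reads (490 RPM) at late lactation, a log2 ratio of -1.84. The next group went from 1017 to 288 RPM, with a log2 ratio of -1.82. The last went from 4900 to 1401 RPM, with a log2 ratio of -1.81. All 3 lay within 0.17 of the log2 ratio of miR-148a-3p over the pair of libraries.

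A list of 15 microRNAs known as abundant in milk or the lactating gland, without the family, was set beside the members. Of these, 9 were found by their counts. Among those 9, 2 were at least 2-fold lower and 1 at least 2-fold higher at late lactation. The median of the 9 on the log2 scale was -0.56. Listed microRNAs that were not found had failed the limits on names and are not shown to be absent. The tally and the median therefore describe the 9 and not the whole list. let-7b, a member of the let-7 family and the highest at peak of the 9 that were found, went from 75588 to 51227 RPM (log2 ratio -0.56). miR-148a-3p was thus above let-7b at peak and below it at late lactation. Abundant groups of tags outside the 9 were also present. The group led by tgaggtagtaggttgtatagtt lay above let-7b in both libraries, at 95571 RPM at peak and 59398 RPM at late lactation. The group led by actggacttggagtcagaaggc went from 31871 to 64249 RPM. These groups were not named here, so whether they belong to the list was not tested.

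Levels of markers of the cell types of the gland also differed between the libraries. Of 11 epithelial microRNAs 4 were found, with a summed level of 31228 RPM at peak and 20871 RPM at late lactation and a median on the log2 scale of -0.14. The highest of them, miR-200c of the epithelial miR-200 family, went from 24151 to 11691 RPM (log2 ratio -1.05). The other 3 epithelial microRNAs did not pass 2-fold and did not move one way, with log2 ratios of -0.28 for miR-200a, -0.01 for miR-200b and 0.97 for miR-141, which went from 2452 to 4807 RPM. Of 5 microRNAs of smooth muscle and stroma, miR-143 was found, at 189037 RPM at peak and 331206 RPM at late lactation (log2 ratio 0.81). The endothelial miR-126 went from 12701 to 6126 RPM (log2 ratio -1.05). Of 3 red cell microRNAs, miR-451 was found, at 1461 and 2930 RPM (log2 ratio 1.004), and of 3 skeletal muscle microRNAs, miR-1, at 2671 and 1468 RPM (log2 ratio -0.86). None of the 4 white blood cell microRNAs was matched. Markers that were not found had failed the same limits on names and are not shown to be absent. The summed level and the median therefore describe the matched markers and not a cell type. The part of these differences in the change of the family was not tested.

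The members differed in how uniform their 3′ ends were. Forms with at least 1% of a member's reads in a library numbered 6 for miR-148a-3p, 6 for miR-148b and 7 for miR-152, and held between 94.4% and 97.6% of the reads of each member. Some of these forms are shown for comparison with the leading tags above, namely the shorter form of each member and examples of a replaced or an added base, each named by what it does to the leading tag. Capitals mark bases that are not in the leading tag at that place.
miR-148a-3p, 1 nt shorter: tcagtgcactacagaactttg
miR-148a-3p, last base replaced: tcagtgcactacagaactttgA
miR-148a-3p, C added: tcagtgcactacagaactttgtC
miR-148a-3p, T added: tcagtgcactacagaactttgtT
miR-148b, 1 nt shorter: tcagtgcatcacagaactttg
miR-148b, T added: tcagtgcatcacagaactttgtT
miR-152, 1 nt shorter: tcagtgcatgacagaacttg
miR-152, A added: tcagtgcatgacagaacttggA
miR-152, T added: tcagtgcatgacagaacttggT
No precursor sequence was used here, so it is not known which of the added bases are encoded in the hairpin.

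miR-148a-3p was the most uniform member. Its leading tag held 90.4% of its reads at peak and 85.4% at late lactation, against 67.7% and 69.4% for miR-148b and 61.8% and 62.7% for miR-152. Forms longer than the leading tag made up 5.45% of the miR-148a-3p reads at peak and 5.25% at late lactation. For miR-148b they made up 23.0% and 15.3%, and for miR-152 36.6% and 32.9%. Longer forms were thus a smaller share of all 3 members at late lactation, with counting intervals that do not overlap, and the difference was least for miR-148a-3p. Among 40 other groups of tags with at least 1000 RPM in both libraries, the share of longer forms was lower at late lactation in 18 and higher in 22. These 40 groups were not checked to be microRNAs. Some hold the sequence of another group from a start shifted by 1 nt, so they are not all separate RNAs. The intervals of the share of the leading tag did not overlap between the libraries in miR-148a-3p. They overlapped in miR-148b and miR-152, which does not show that those shares were equal.

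The base that was added most often differed between members. In miR-148a-3p the form with an added C led the longer forms, with 2.28% of the reads at peak (2296 RPM) and 2.13% at late lactation (547 RPM). The form with an added T held 1.54% (1551 RPM) and 0.946% (243 RPM), and the form with an added A held 0.586% (591 RPM) and 1.01% (260 RPM). Within miR-148a-3p, therefore, the share of the added T was lower and that of the added A higher at late lactation.

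In miR-148b an added T led. That form held 16.2% of the reads at peak (353 RPM) and 10.1% at late lactation (54.8 RPM), and its log2 ratio of -2.69 was lower than that of the leading tag, -1.97. The form with TT added went from 2.25% to 1.27%, and the form with an added A from 2.14% to 1.89%, with overlapping intervals. In miR-152 an added A led, with 22.3% of the reads at peak (402 RPM) and 18.3% at late lactation (123 RPM). Its form with an added T held 9.15% and 8.32%, and the one with an added G 1.31% and 1.53%, and the intervals of the libraries overlapped for both. The form of miR-152 with AA added was a larger share at late lactation (0.613% and 1.17%), and that with TA added held 1.07% and 0.705%, with intervals that overlap.

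The share of reads 1 nt shorter than the leading tag was higher at late lactation in every member. For miR-148a-3p the 21-nt form held 15472 reads (812 RPM) at peak and 8886 reads (1203 RPM) at late lactation, a log2 ratio of 0.57 (0.53 to 0.60), while the 22-nt leading tag had a log2 ratio of -2.05. Its share of the miR-148a-3p reads was 0.806% at peak and 4.68% at late lactation, 5.81 times as high (5.66 to 5.96). There were 112 reads of the leading tag for each read of the shorter form at peak and 18.3 at late lactation.

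The shorter forms of the minor members moved in the same direction relative to their leading tags. The 21-nt form of miR-148b held 902 reads (2.17%) at peak and 209 reads (5.20%) at late lactation, 2.39 times the share (2.05 to 2.78). The 20-nt form of miR-152 held 76 reads (0.221%) and 84 reads (1.69%), 7.66 times the share (5.55 to 10.6). The form of miR-152 rests on few reads, and its interval is correspondingly wide. In RPM it was higher at late lactation (3.99 and 11.4 RPM), as for miR-148a-3p, whereas the shorter form of miR-148b was lower (47.4 and 28.3 RPM).

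The form in which the last base is replaced by A equals the shorter form with an A added. For miR-148a-3p it held 38176 reads (1.99%) at peak and 5130 reads (2.70%) at late lactation. There were 2.47 reads of it for each read of the shorter form at peak and 0.577 at late lactation. For miR-148b the form held 6.31% and 7.95% of the reads, and the same ratio was 2.90 and 1.53. For miR-152 it rested on 198 and 28 reads, and the ratio was 2.61 and 0.333. At peak the ratio thus lay between 2.47 and 2.90 in the 3 members, and it was lower at late lactation in each.

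**Figure D3:**
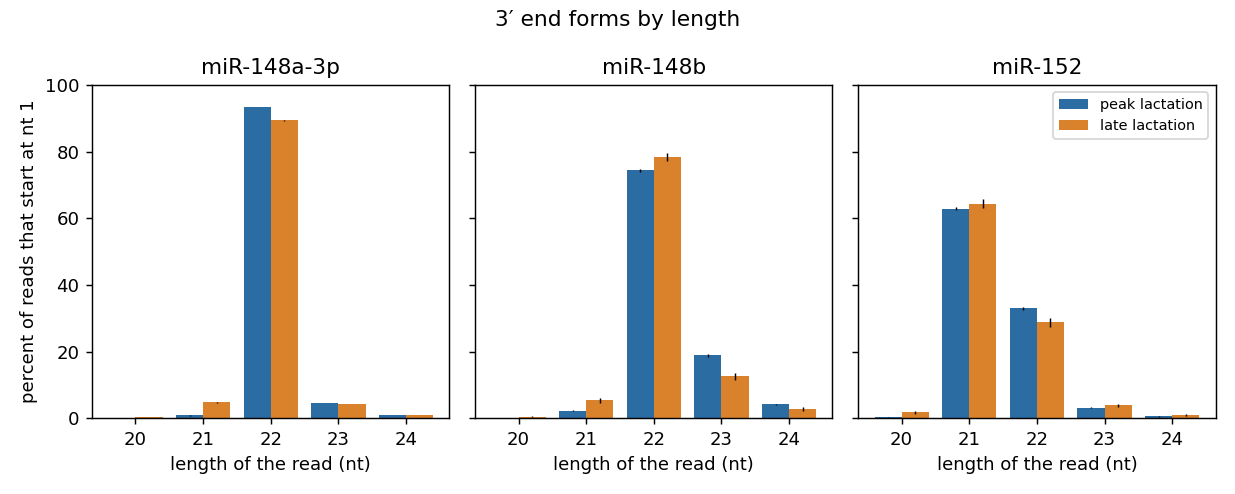
Length of the reads that start at nt 1 of each member (horizontal axis, 20 to 24 nt) as a percentage of those reads of all lengths (vertical axis), with blue bars for the peak library, orange bars for the late library and lines for the 95% counting intervals. Reads of 22 nt made up 93.4% and 89.4% of miR-148a-3p and 74.4% and 78.4% of miR-148b, and miR-152 peaked at 21 nt with 62.9% and 64.4%.

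The mean length of reads that start at nt 1, up to 26 nt, was 22.05 nt at peak and 22.01 nt at late lactation for miR-148a-3p. It was 22.25 and 22.13 nt for miR-148b, and 21.41 and 21.37 nt for miR-152. The late mean was below the peak mean in each member, and the difference was largest for miR-148b, at -0.12 nt. A lower late mean was also seen in 24 of the 40 other groups of tags with at least 1000 RPM in both libraries, whose median difference was -0.07 nt.

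The same measure was taken for the 40 other groups of tags with at least 1000 RPM in both libraries, each against its own leading tag. The peak share of reads 1 nt shorter was lower in miR-148a-3p (0.808% of its group) than in all 40, whose median was 10.2%. At late lactation its share of 4.71% was below that of 31 and above that of 9. The late share was 5.83 times the peak share for the miR-148a-3p group, with a median of 1.20 and a maximum of 3.67 for the others. In percentage points the difference of 3.90 was less extreme, with 26 of the 40 groups also higher at late lactation, 14 of them above it, and a range from -34.0 to 12.2. The leading tag of miR-148a-3p was chosen by its peak count, and the 40 groups are neither all known to be microRNAs nor all separate RNAs. These ranks are therefore a description. The late library also had shorter reads on average (21.7 nt against 22.3 nt) and more reads removed for 5′ adaptor contamination (14.03% of the high-quality reads against 0.0494%). The part of these differences in the 3′ ends was not tested.

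**Figure D4:**
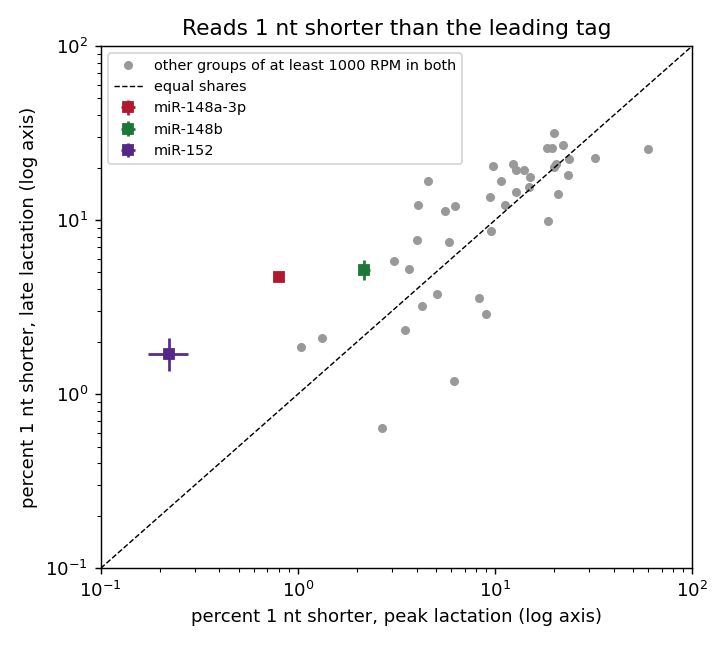
Percentage of reads that are 1 nt shorter than the leading tag at peak (horizontal axis) and at late lactation (vertical axis), both log axes, for the family members (squares, with 95% counting intervals) and 40 other groups of at least 1000 RPM in both libraries (grey circles). The members lie above the line of equal shares, at 0.806% and 4.68% for miR-148a-3p, 2.17% and 5.20% for miR-148b, and 0.221% and 1.69% for miR-152.

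The 5′ ends set the seed. Since a tag had to carry nt 2 to 17 to be counted, reads that start at nt 3 or later are not seen here, and the shares below hold among the tags counted. Reads that start at nt 1 made up 99.8% of miR-148a-3p at peak and 99.6% at late lactation. For miR-148b the shares were 99.8% and 99.4%, and for miR-152 99.8% and 99.2%. Reads with 1 base before nt 1 were the largest other class at late lactation, with 0.241% of miR-148a-3p (0.0567% at peak), 0.323% of miR-148b (0.0554%) and 0.383% of miR-152 (0.134%). Reads that had lost nt 1, which shifts the seed by 1 base, made up 0.114% and 0.137% of miR-148a-3p.

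Some reads of the family were longer than the 30 nt selected on the gel. For miR-148a-3p they numbered 269 at peak and 39 at late lactation, or 140 and 205 per 1000000 of its reads. At peak 225 of them were 41 to 44 nt long, and 121 had 44 nt. Of those 121 reads, 91 ended with the whole leading tag and 68 began with it, and in 83 both 22-nt parts were tags with over 10000 reads of their own. These joined tags were too few to bear on the level of miR-148a-3p.

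The members differ by few bases, so misreads of the abundant miR-148a-3p were counted. All 57 possible single-base changes at nt 2 to 20 of its leading tag were seen in both libraries. Together they came to 1.41% of the reads of that tag at peak and 1.78% at late lactation, with a median of 138 and 105 per 1000000 reads of the tag for a single change. The change C9T, which miR-148b and miR-152 both carry, was seen at 510 and 499 per 1000000, T10C at 293 and 283 and T10G at 17.9 and 37.0. If both changes needed for miR-148b fell independently, they would turn 0.287 reads of miR-148a-3p into miR-148b at peak and 0.0269 at late lactation, against 41522 and 4023 reads measured. For miR-152 the product would give 0.0175 and 0.00351 reads. Whether changes at these neighbouring bases are independent was not tested, so the products are not upper bounds. The 3′ ends also kept the minor members apart, since only 11 and 3 reads joined nt 2 to 17 of miR-152 to nt 18 to 20 of miR-148b, and 21 and 4 reads the reverse.

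The most frequent of these changes was A11C in both libraries. It held 4584 reads at peak, 0.264% of the leading tag's reads (0.256% to 0.272%), and 883 reads at late lactation, 0.544% (0.509% to 0.581%). The other changes to C together were also more frequent at late lactation (2978 and 4197 per 1000000 reads of the tag), as were changes to G (2342 and 3211) and to T (2307 and 3155), while changes to A were less frequent (3803 and 1756). The part of base calling in A11C was not tested.

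The 5p arms are the other strand of the hairpins and are usually the less abundant product. They were found as tags that carry at nt 4 to 9 the reverse complement of nt 12 to 17 of the members, a rule set after the data were seen, and took their names from their counts. Of the groups that met the rule, the 2 with the most abundant leading tags at peak were kept. The next group, led by a 30-nt tag, held 3266 reads at peak and 1294 at late lactation and was not followed. The leading tags are shown with nt 2 to 8 in capitals, since this is the seed that the arm would bring.
miR-148a-5p: aAAGTTCTgagacactccgact
miR-148b-5p: gAAGTTCTgttatacactcaggc
nt 2 to 8 were the same in both, of which nt 4 to 8 were fixed by the search. The groups kept were compared with the counts of these 2 names only. miR-152-5p was therefore not matched to a tag here and is not shown to be absent.

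miR-148a-5p held 2466 reads (129 RPM) at peak and 286 reads (38.7 RPM) at late lactation, so its log2 ratio was -1.74 (-1.92 to -1.56). miR-148b-5p held 1213 reads (63.7 RPM) and 244 reads (33.0 RPM), a log2 ratio of -0.95 (-1.15 to -0.75). Both arms were lower at late lactation, but miR-148b-5p did not reach the 2-fold limit that its 3p arm passed.

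The arms were far more unequal for miR-148a than for miR-148b. The 5p arm made up 0.128% of the reads of both arms of miR-148a at peak (0.123% to 0.133%) and 0.150% at late lactation (0.133% to 0.169%). For miR-148b it made up 2.84% (2.68% to 3.0%) and 5.72% (5.04% to 6.46%). There were 779 and 664 reads of miR-148a-3p for each read of its 5p arm, and 34.2 and 16.5 reads of miR-148b for each read of its own. The log2 ratio of the 5p arm exceeded that of the 3p arm by 1.05 for miR-148b (0.85 to 1.26) and by 0.23 for miR-148a (0.05 to 0.41). Forms of the 5p arms also differed in length. The leading form of miR-148a-5p held 60.9% and 62.2% of its reads. The 21-nt form followed with 20.8% and 15.03% (513 and 43 reads), with overlapping intervals. The leading form of miR-148b-5p held 62.7% and 70.9%. Its 22-nt form 1 nt shorter went from 12.04% to 4.51%, the opposite direction to the shorter forms of the 3p arms. It rests on 146 reads at peak and only 11 at late lactation (2.27% to 7.92%).

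The number of distinct tags of each member was lower in the late library, which was less deeply sequenced. miR-148a-3p was seen as 507 tags at peak and 335 at late lactation, of which 156 were shared. With the peak library thinned to the depth of the late library in 10 draws, miR-148a-3p was seen as 303.6 tags on average (286 to 312), fewer than at late lactation. For miR-148b the thinned number was 72.4 (66 to 78) against 64 tags at late lactation, and for miR-152 it was 73.7 (67 to 79) against 68. Thinning made the depth of the libraries equal and not the reads of a member, which stayed more numerous at peak. These numbers therefore do not separate the variety of tags from the level of the member. Tags with a single read made up 54.0% of the miR-148a-3p tags at peak and 47.5% at late lactation.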

How the data were processed

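The authors extracted total RNA, selected 18 to 30 nt on a gel, amplified the libraries with 15 PCR cycles and sequenced them on an Illumina 1G Genome Analyzer. They trimmed and filtered the reads, collapsed identical reads and deposited raw counts per distinct tag, without mapping or names, and no tool version is stated for these steps. The counts were joined by sequence here and divided by the clean reads of each library. The members, lists and tests were chosen with earlier results of these data known. miR-148b, miR-152 and the listed microRNAs were named where the sums of nt 2 to 17 lay nearest to the counts listed under a name in the study's supplement (within 5% and at least 20000 reads for listed ones). Named were the members and 5p arms, forms of at least 1%, the 3 groups of nearest ratio, the runner-up tag and the highest of each list. As no table of mature microRNAs was used here, groups of tags sharing their first 18 nt took its place in the background and among the neighbours. Such groups were not checked to be microRNAs, and reads with a shifted start fall into separate groups. With 1 library per stage no test was run, and 2-fold was the limit. The ratio, its interval and the 2-fold limit were tested on simulated counts. The calculations used Python 3.11.15, pandas 2.3.3, numpy 2.4.6, matplotlib 3.10.9, scipy 1.17.1 and R 4.3.3. The scaling factors of edgeR 4.0.16 and DESeq2 1.42.0 were alternatives.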

Additional observations from a re-analysis of the deposited data

How the results depend on the processing

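No paired analysis was possible because each stage had 1 library. The log2 ratios kept their direction and their side of 2-fold under all 9 alternatives, ranging from -2.05 to -1.89 for miR-148a-3p, from -2.03 to -1.92 for miR-148b, from -1.45 to -1.34 for miR-152 and from -2.04 to -1.88 for the family. The other scalings (reads of 18 to 30 nt only, leaving out the 10 leading tags of either library, TMM and median-ratio factors) moved every log2 ratio by at most 0.09. With the leading tags only, the change in the share of the family went from -0.057 to 0.086 percentage points for miR-148b, which reversed it, and from 0.773 to 0.659 for miR-152. With the leading tag only, the log2 ratio was -1.71 for miR-148a-5p and -0.77 for miR-148b-5p. With all tags that carry nt 2 to 17, the change in mean length of miR-148a-3p was -0.038 nt instead of -0.041 nt. The number of distinct tags in late lactation was 0.661 times that in peak lactation for miR-148a-3p and 0.613 times for miR-152, and 1.10 and 0.923 times with the peak library thinned. The background share depended on the groups admitted. Of groups with at least 1 read in both libraries, 16.04% were at least 2-fold lower in late lactation, against 31.1% of those with at least 1 RPM in a library. The unequal depth moves the former share, since 1 read in each library counts as more than 2-fold higher. With at least 10 RPM in a library the share was 37%. Forms that follow the precursor and a reference table of microRNAs were not run, as no such sequences were used here.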
